A study of Mus musculus with 4 samples.

Results

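The serpins are a family of proteins that share a fold, and most of them are inhibitors of serine proteases. An inhibitory serpin presents an exposed reactive centre loop as bait: the protease cuts the loop, stays covalently bound to it and is dragged across the serpin, so that both are used up. The liver secretes the serpins of plasma, among them the antitrypsins, antithrombin and the inhibitors of plasmin and of complement C1, while clade B serpins act mainly inside cells and a few family members carry hormones or fold collagen instead of inhibiting a protease. The members described here were the non-control probes of a mouse array whose gene name begins with Serpin, a clade letter from a to i and a number. This gave 61 gene names with 78 probes on 87 spots, of 36161 names on the array. A probe without an outlier flag was left for 60 of them, of 35577 genes in all, and each gene was read from its brightest probe.

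The study asked how gene expression in the liver of naturally small (microsomic, M) mice at birth compares with that of normal-weight controls (C). Total RNA of whole liver was labelled with Cy3 and hybridized to 1-colour Agilent arrays with probes of 60 bases, 1 array a group. The groups were females and males of each kind, named MF and MM when microsomic and CF and CM when control. The labels give strain C57BL/6J and embryonic day 20 for all 4 groups, whereas the methods describe newborn C57BL/6 N animals, microsomic ones being those in the low tail of the weights of the colony and controls their littermates. No allele or treatment was added in any group, and neither labels nor methods say whether an array held RNA of 1 animal or of a pool. The methods speak of 3 replicate experiments per group, but 1 array per group was analysed here, so a difference between a pair of arrays has no replicate check, no error and no p-value. All 4 arrays lay on the same slide, with both M arrays in one column of it, so column and weight group cannot be told apart.

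Values are log2 processed signals centred on each array's 75th percentile, called the log2 level here. They compare the same probe between arrays and not a gene with another gene. A level counts as measured where the scanner software called the probe well above background. The 75th percentile of the signal lay between 628 and 925 on the 4 arrays, and 56.1% to 65.3% of non-control spots were well above background. All 10 hepatocyte markers (Alb and Ttr among them) were well above background on every array, with a summed linear level between 4140 on MM and 6710 on MF. The granulocyte list was highest on MF (2070, against 1010 to 1340 elsewhere), as was the macrophage list (308, against 134 to 152), with 8 of 10 genes of each list higher on MF than on CF and all 10 of each measured on every array. The heart muscle list summed to 176 on CF and to 0.853 to 2.64 on the others, and its part in the differences from CF was not tested. Probes printed at 10 spots had a median SD of 0.30 for the difference of MF and CF at the same spot and of 0.32 for MM and CM, which covers spot noise within arrays but not differences between animals.

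The antitrypsins are near-identical copies side by side on chromosome 12, and their probe sequences limit which of them a signal can be assigned to. They are shown first for that reason. A pair of probes covers the part of the reading frame that encodes the reactive centre loop, the stretch that meets the protease and where the paralogues differ most, and another probe lies further upstream in the reading frame. Capitals mark the longest run that the Serpina1a and Serpina1e probes share, 17 bases, and the Serpina1d probe has none marked. The probes start at different places of their transcripts, so a short shared run does not show that a probe reads a single paralogue. Binding to transcripts of the other paralogues was not tested, and Serpina1b has no probe under its name on the array. Positions are on mm9, minus strand.
Serpina1a, chr12:105091979-105092038: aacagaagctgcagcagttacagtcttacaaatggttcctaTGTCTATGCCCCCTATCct
Serpina1e, chr12:105185290-105185349: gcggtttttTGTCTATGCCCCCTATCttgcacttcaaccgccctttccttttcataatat
Serpina1d, chr12:105002930-105002989: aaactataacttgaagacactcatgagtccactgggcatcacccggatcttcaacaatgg

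The brightest probe of Serpina1a, the only probe of Serpina1c and the other probe of Serpina1e lie near the 3′ end of their transcripts instead. A 30-base stretch of each shows how little separates them. Capitals mark the 29 bases that all 3 share, and the Serpina1a and Serpina1c probes have 47 bases in a row in common, so these probes cannot assign signal to a single paralogue.
Serpina1a, chr12:105091843-105091872: GTCATCCTTCCTTCTGAATTGGGTTCCTTc
Serpina1c, chr12:105133180-105133209: GTCATCCTTCCTTCTGAATTGGGTTCCTTc
Serpina1e, chr12:105185186-105185215: GTCATCCTTCCTTCTGAATTGGGTTCCTTt

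Serpin genes were detected on at least 1 array about as often as genes in general. Of the 60 genes, 39 reached a signal well above background on every array and 47 on at least 1, shares to be read against 54.3% and 78.4% of all genes. By the probe used, 13 reached it on no array, Serpina12 and 12 clade B genes, among them the epithelial Serpinb5, Serpinb7, Serpinb11, Serpinb12 and Serpinb13. The other probe of Serpinb12 was well above background on MM (-2.25), at least 5.43-fold above CM. The hepatocyte products Serpinc1, Serpina1a, Serpina1c, Serpina1d, Serpina1e, Serpinf2 and Serping1 were measured on every array, whereas the neuronal Serpini1 and the pancreatic Serpini2 stayed near the limit of detection. Serpini1 read -4.87 on MF and -4.29 on CF, with -4.80 on MM and -5.02 on CM, the last not well above background. For Serpini2 the levels were -5.34, -7.21, -7.12 and -6.07 in the same order, with MF alone well above background. The dim clade B genes Serpinb3a, Serpinb3d, Serpinb6e and Serpinb9e lay between -6.91 and -3.78 and were measured on 1 to 4 arrays. By the probe used, Serpinb9e was measured on CF alone, at least 4.24-fold above MF, and Serpinb3d was at least 3.22-fold lower in MM than in CM.

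**Figure D1:**
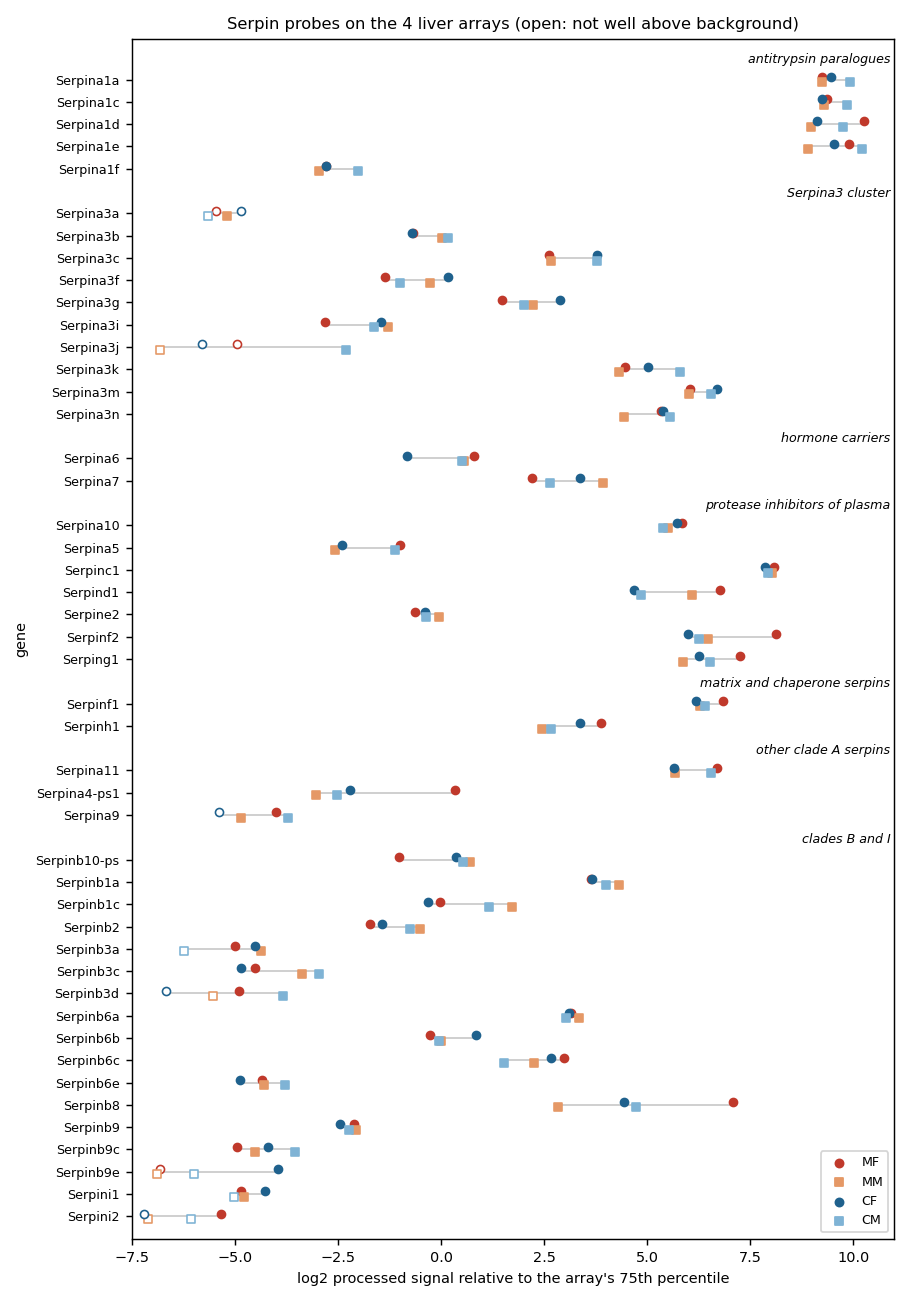
Log2 level of 46 serpin genes (vertical axis, grouped by role) on the 4 arrays, 1 symbol per array; the horizontal axis is log2 processed signal relative to the 75th percentile of each array, and open symbols are not well above background. Read each row on its own: Serpinc1 holds within 7.87 to 8.08, Serpind1 has both M arrays (red and orange) above both C arrays (blues), Serpina3c has them below, and Serpinb8 has MF far to the right and MM far to the left.

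Between microsomic and control females, 22 of 45 serpin genes compared differed by over 1.5-fold, the line used for every call here (40.9% of all genes did), 12 higher and 10 lower in MF (19.9% and 21.1% of all genes). Between the males it was 20 of 45 (40.8% of all genes), 4 higher and 16 lower in MM, against 17.7% higher and 23.1% lower of all genes. Without scaling between arrays, which shifts all genes towards M, 21 of 29 called members were higher in MF and 19 of 26 in MM, and other scalings gave 9 of 21 to 15 of 24 in the females and up to 9 of 19 in the males. The median difference of the measured members was 0.11 in the females and -0.19 in the males, beside -0.11 and -0.07 over all genes. Both signs depended on the scaling, since the female median was -0.17 with quantile normalization and -0.03 with normexp, and the male median 0.05 when centred on the median. Only 3 members were past 1.5-fold the same way in both pairs (6.98% of all genes were): Serpind1 higher (3.19% of all genes), and Serpina3c and Serpinb9c lower (3.8%), in M. In 9 members the pairs went opposite ways (9.85% of all genes). The pairs share no array. Fewer cells of a type and less RNA per cell cannot be told apart in whole-liver RNA.

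The model that uses all 4 arrays, limma with M or C and gender as terms, tests only a change common to both genders and has 1 residual degree of freedom. It called 0 of the 39 members tested, and 0 of 19303 genes (0.0%), at an adjusted p under 0.05. Unadjusted p-values under 0.05 were found for 2 members, Serpind1 and Serpina3c, and for 853 genes (4.42%).

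**Figure D2:**
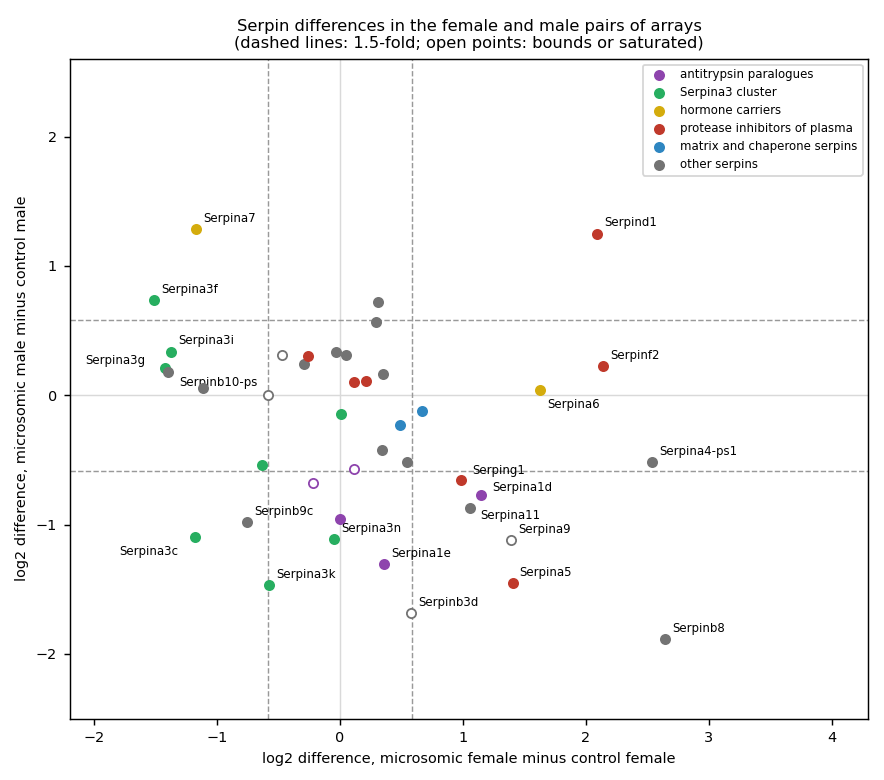
Log2 difference M minus C of each serpin gene in the female pair (horizontal axis) and in the male pair (vertical axis); each point is 1 gene coloured by role, dashed lines mark 1.5-fold, and open points are bounds or saturated. Serpind1 stands alone beyond the lines at the upper right, Serpina3c and Serpinb9c lie at the lower left, and Serpinb8 and Serpina5 lie at the lower right with opposite signs.

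Counts of this and the following lists stand beside 19.9% higher and 21.1% lower of all genes in females, and 17.7% and 23.1% in males. Among the inhibitors of coagulation, fibrinolysis and complement, 5 of 8 were higher and 0 lower in MF than in CF (median 1.19). The female count was 4 of 8 with quantile normalization (median 0.75), normexp (0.44) or the mean of all probes (0.94), and 6 of 8 without scaling (1.60). In MM against CM 1 was higher and 3 lower (median 0.11), or 5 higher and 2 lower without scaling. Of the 8 inhibitors, Serping1 changed sign in both pairs under normexp background correction with quantile normalization (-0.15 and 0.13). Serpina10 also changed sign in both pairs and Serpinc1 in the females, from differences within 1.5-fold (values below). Serpind1, heparin cofactor II, a thrombin inhibitor that works with dermatan sulfate, was the member of this list past the line the same way in both pairs. Its log2 level was 6.77 on MF and 6.09 on MM, and 4.68 on CF and 4.84 on CM. Both M arrays were above both C arrays, by 4.25-fold in the females and 2.38-fold in the males. The summed level of the 10 intestinal epithelium markers was also higher on both M arrays. It was 104 on MF and slightly more on MM, against 18.1 on CF and 17.1 on CM. Of the 10, 4 were well above background on every array. By gene, 7 of 8 compared were higher and 0 lower in MF than in CF. In MM against CM 2 of 7 were higher (Fabp2 2.38 and Apoa4 3.59) and 3 lower. The part of this list in the Serpind1 difference was not tested. limma gave a difference of 1.67 (SE 0.44, unadjusted p = 0.006, adjusted p = 0.995 over all genes). The single probe lies at chr16:17343544-17343603 (mm9). Its last 30 bases hold a run of C and T, in capitals.
Serpind1, chr16:17343574-17343603: tttaaattcatgtaaataTCTCCTCTTCTg

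Antithrombin (Serpinc1), the main plasma inhibitor of thrombin and factor Xa, read 8.08 on MF, 7.87 on CF, 8.04 on MM and 7.93 on CM. On this scale the span was smaller than the spot noise of a difference, with M over C at 1.16-fold in females and 1.08-fold in males. Size and direction depended on the scaling: the female difference was -0.54 with quantile normalization and -0.58 with normexp, and without scaling the differences were 0.61 and 0.67. Serpina10, which inhibits factor Xa together with protein Z, was as close by the probe used, at 5.84 on MF against 5.73 on CF, and 5.49 on MM against 5.39 on CM. A second probe of Serpina10 was lower in M in both pairs, by 1.82-fold in females and 1.55-fold in males, so the direction for this gene rests on the probe, and it also turned with the scaling (-0.48 with quantile normalization in females, -0.40 and -1.03 with normexp in females and males). Serpine2, protease nexin, differed by 1.20-fold in the females and 1.23-fold in the males, in opposite directions.

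The antiplasmin gene Serpinf2, whose product restrains fibrinolysis, stood out on MF. It had a level of 8.14 on MF and 6.00 on CF, with 6.48 on MM and 6.26 on CM. MF was 4.40-fold over CF, while MM and CM differed by 1.17-fold.

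Serpina5, the protein C inhibitor, went opposite ways in the pairs, with -0.997 on MF against -2.40 on CF, and -2.57 on MM against -1.11 on CM. MF was 2.65-fold above CF and MM 2.74-fold below CM, so MF lay next to CM and MM next to CF. Serping1, the C1 inhibitor that restrains complement and plasma kallikrein, read 7.25 on MF and 6.26 on CF, with 5.86 on MM and 6.51 on CM, 1.98-fold higher in MF and 1.57-fold lower in MM. A second Serping1 probe did not share the female difference (-0.04) and gave -0.50 in the males. The granulocyte and macrophage lists were also highest on MF (given above), and their part in the higher levels on MF was not tested.

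The proteases that these serpins control were compared as a list. Of 11 coagulation and fibrinolysis proteases compared in females, 3 were higher (F11, Habp2 and Hgfac, by 1.64, 1.14 and 0.83 on the log2 scale) and 2 lower (F9 and Plat, -1.15 and -1.12) in MF. Of 10 compared in males, 2 were higher in MM (Plat 0.72, Klkb1 0.71) and 0 lower. Prothrombin (F2), the thrombin precursor, differed by 0.39 and -0.01. The medians were 0.38 and 0.13, against -0.11 and -0.07 over all genes. Of 5 complement proteases, none passed the line in females and Masp1, of the lectin pathway, was higher in MM (1.39). Vitronectin (Vtn), an adhesive protein of plasma and matrix, was higher in MF by 1.13 and differed by 0.07 in males. In all, 2 of 7 cofactor and clearance genes were higher in MF, and 1 higher and 1 lower in MM.

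The antitrypsins, which protect tissue from neutrophil elastase, were lower in the microsomic male on the scale used, although the sign turned for Serpina1a and Serpina1e under normexp (0.05 and 0.07) and for Serpina1c under quantile normalization (0.11). In MM against CM 4 of 5 paralogues were over 1.5-fold lower (median -0.77), beside 23.1% of all genes. The 5 are not independent readings, since the probes used for Serpina1a and Serpina1c share 47 bases in a row. The count depended on the scaling, with 2 of 5 lower after centring on the median (median -0.53) or quantile normalization (-0.22), and 1 of 5 with normexp (-0.01) or without scaling (-0.21). On the scale used, in MF against CF 1 of 5 was higher and 0 lower (median 0.11). Serpina1d had a log2 level of 10.27 on MF, 9.12 on CF, 8.97 on MM and 9.74 on CM, 2.22-fold higher in MF and 1.71-fold lower in MM. Its second probe gave 1.76-fold and 1.20-fold the same ways, so the male call rests on the probe. Serpina1e read 9.90 on MF against 9.54 on CF, and 8.90 on MM against 10.21 on CM, with a male difference of 2.47-fold and a female one of 1.28-fold. MM was the lowest of the 4 arrays for both. Serpina1f, a divergent copy known from the epididymis, read -2.80, -2.97, -2.79 and -2.01 on MF, MM, CF and CM, 1.94-fold lower in MM.

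The 3′ probes of Serpina1a and Serpina1c were saturated on MF, so their female differences are limited. Serpina1a read 9.24 on MF (saturated) and 9.46 on CF, with 9.24 on MM and 9.92 on CM, and no female fold is given. Serpina1c read 9.35 on MF (saturated), 9.24 on CF, 9.28 on MM and 9.86 on CM, at least 1.08-fold higher in MF and 1.49-fold lower in MM. The coding probe of Serpina1a, whose sequence is printed above and which was not saturated, gave 10.14 on MF against 9.26 on CF, and 8.78 on MM against 9.40 on CM. By that probe Serpina1a was 1.84-fold higher in MF and 1.53-fold lower in MM, the order of Serpina1d. The second Serpina1e probe was lower in MM by 1.80-fold. The summed hepatocyte markers were also lowest on MM (4140, against 6040 to 6710 elsewhere). That linear sum weighs the brightest probes most, and some of them, Alb among them, were saturated on an array. By gene, 5 of 10 were lower in MM than in CM and 2 were higher (Hnf4a 1.01 and Apob 0.97). The part of these markers in the lower antitrypsin levels was not tested.

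**Figure D3:**
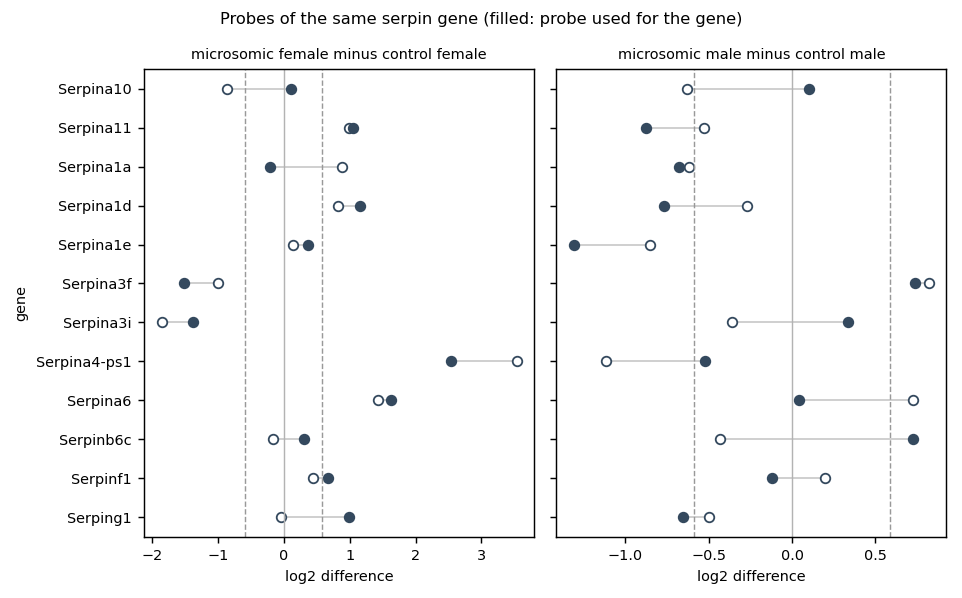
Log2 difference M minus C for 12 serpin genes with several probes measured on all 4 arrays, females at left and males at right; each point is a probe, the filled one is the probe used, and dashed lines mark 1.5-fold. In 4 genes of each panel the probes fall on both sides of 0, such as Serpina10 in both and Serpina1a at left, where the filled probe was saturated on MF.

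The Serpina3 cluster, the mouse expansion of the antichymotrypsin gene, was lower in MF in 5 of 8 genes compared and higher in none (median -0.91). The lower count was 4 of 8 when centred on the median (median -0.81) or without scaling (-0.51), and 6 of 8 with quantile normalization (-1.25). Of all genes 21.1% were lower and 19.9% higher. In the males 4 of 10 were lower and 1 higher in MM (median -0.34), or 2 lower and 3 higher without scaling, beside 23.1% and 17.7% of all genes on the scale used. Serpina3c, also known as kallikrein-binding protein, was over 1.5-fold lower in both pairs: 2.61 on MF and 3.79 on CF, with 2.68 on MM and 3.77 on CM. The M arrays lay close together and below the C arrays, by 2.27-fold in females and 2.14-fold in males. limma gave -1.14 (SE 0.41, unadjusted p = 0.026, adjusted p = 0.995).

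Serpina3g, which inhibits cathepsins inside leukocytes, read 1.47 on MF, 2.89 on CF, 2.23 on MM and 2.02 on CM, 2.68-fold lower in MF and 1.16-fold higher in MM. Serpina3f had levels of -1.36 on MF against 0.15 on CF, and -0.27 on MM against -1.01 on CM, so it was 2.86-fold lower in MF and 1.66-fold higher in MM. A second Serpina3f probe gave the same directions (1.99-fold and 1.76-fold). Serpina3i was lower in MF by 2.59-fold with the probe used and 3.61-fold with the other, and its probes disagreed in direction in males.

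Serpina3k, a secreted serpin abundant in liver, read 4.45 on MF and 5.03 on CF, with 4.32 on MM and 5.79 on CM. It was 2.76-fold lower in MM and 1.49-fold lower in MF, the latter just short of 1.5-fold. The acute-phase gene Serpina3n, which inhibits granzyme B and elastase, read 5.33 on MF, 5.38 on CF, 4.44 on MM and 5.55 on CM, lower on MM by 2.16-fold with the other arrays close together. Serpina3m was lower in M by 1.55-fold in females and 1.46-fold in males. Serpina3b was 1.01-fold higher in MF and 1.10-fold lower in MM. Of the dim members, Serpina3j was well above background on CM alone (-2.30), at least 11.5-fold above MM, and Serpina3a on MM alone (-5.21). Serpina3h is not among the genes compared, since its only probe carried an outlier flag on MF.

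The target proteases of leukocyte granules and lysosomes gave 3 higher (Elane 1.95, Mpo 1.02, Prtn3 0.65) and 3 lower (Gzmm -1.77, Ctsl -1.41, Cma1 -1.11) of 12 in females. In males 1 of 12 was higher (Mcpt8, 1.15). Mpo is a peroxidase of the same granules and no protease. Neutrophil elastase (Elane), the chief target of the antitrypsins, read 7.61 on MF against 5.67 on CF, and 4.61 on MM against 5.09 on CM, and is itself a gene of the granulocyte list.

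The 2 hormone carriers do not inhibit proteases. Serpina6, corticosteroid-binding globulin, read 0.80 on MF and -0.82 on CF, with 0.55 on MM and 0.51 on CM. CF was the low array, 3.08-fold below MF, and the males differed by 1.03-fold. A second Serpina6 probe gave 2.69-fold and 1.65-fold higher in M, so with that probe the gene passed the line in both pairs. Serpina7, thyroxine-binding globulin, read 2.21 on MF, 3.38 on CF, 3.92 on MM and 2.64 on CM, 2.25-fold lower in MF and 2.43-fold higher in MM. The probe of Serpina7 spans an intron (chrX:135615848-135616502, mm9). Of 10 other plasma carriers, 2 were higher and 1 lower in MF and 4 were lower in MM (medians 0.29 and -0.50). Orm1, an acute-phase carrier, was lower in M in both pairs (-1.14 and -1.09), and transthyretin (Ttr), another thyroxine carrier, was at least 0.36 higher in MF and 0.61 lower in MM on the log2 scale.

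Of the other plasma protease inhibitors, 5 of 17 were higher and 3 lower in MF (19.9% and 21.1% of all genes). In MM 2 were higher and 3 lower (17.7% and 23.1% of all genes). The medians were -0.05 and 0.03. A2m, a broad protease trap, crossed as Serpina5 did, with 2.08 in females and -2.26 in males.

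Of the serpins of matrix and collagen folding, 1 of 2 was higher in MF and 0 passed the line in MM. Serpinf1, the anti-angiogenic PEDF, which is not inhibitory, read 6.85 on MF against 6.18 on CF, and 6.28 on MM against 6.40 on CM, 1.59-fold higher in MF by this probe and 1.35-fold by the other. That female difference changed sign under other scalings (-0.07 with quantile normalization, -0.42 with normexp). Serpinh1, the collagen chaperone Hsp47, read 3.87 on MF and 3.38 on CF, with 2.44 on MM and 2.67 on CM. Both female arrays were above both male arrays, and neither M against C difference reached 1.5-fold (0.49 and -0.23). Summed mesenchyme and stellate cell markers, the cells that use Hsp47 most, ran from 115 to 156.

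The remaining clade A members were higher in MF in 3 of 3 genes (19.9% of all genes) and lower in MM in 2 of 3 (23.1%). Serpina11, a liver serpin of little known function, read 6.69 on MF, 5.64 on CF, 5.68 on MM and 6.55 on CM, 2.08-fold higher in MF and 1.83-fold lower in MM, and its second probe gave 1.99-fold and 1.44-fold the same ways. Serpina4-ps1, a transcribed pseudogene, read 0.33 on MF against -2.21 on CF, and -3.04 on MM against -2.52 on CM, 5.82-fold higher in MF. Its second probe overlaps the first by 49 bases and is no independent reading. Serpina9, a B cell serpin, was at least 2.63-fold higher in MF and 2.17-fold lower in MM, near the detection limit.

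Of the clade B serpins of blood cells, which guard cells against their own granule proteases, 1 of 11 was higher and 3 lower in MF (19.9% and 21.1% of all genes). In MM 1 of 10 was higher and 2 lower (17.7% and 23.1% of all genes). Serpinb1a, the leukocyte elastase inhibitor, read 3.63 on MF and 3.67 on CF, with 4.33 on MM and 3.99 on CM, within 1.26-fold in either pair. Serpinb6a, which inhibits cathepsin G, read 3.16, 3.34, 3.11 and 3.03 on MF, MM, CF and CM, within 1.24-fold. Serpinb9, which protects cells from granzyme B, was at -2.11, -2.07, -2.46 and -2.24 in the same order.

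Serpinb10-ps (named as a pseudogene on the array and not a RefSeq symbol of today) read -1.03 on MF, 0.37 on CF, 0.70 on MM and 0.52 on CM, with MF alone low by 2.64-fold against CF. Serpinb6b was lower in MF by 2.17-fold and differed by 1.04-fold in males. Serpinb9c, one of the mouse copies of Serpinb9, was the other member lower by over 1.5-fold in both pairs, at -4.96 on MF against -4.20 on CF, and -4.53 on MM against -3.54 on CM. Its levels were near the limits of detection (-6.03 on MF, -5.48 on CF, -5.83 on MM and -4.69 on CM), its differences were 1.69-fold and 1.97-fold, and its other probe was well above background on 0 arrays.

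Serpinb8, an intracellular inhibitor of furin, gave the widest span of the clade: 7.08 on MF and 4.44 on CF, with 2.84 on MM and 4.72 on CM. MF was 6.24-fold above CF and MM 3.70-fold below CM. Its single probe, in the last part of the transcript, is largely a GT repeat, as its last 30 bases show with their first repeat run in capitals.
Serpinb8, chr1:109504895-109504924 (plus strand): atGTGTGTGTGTGTgcctctgtgtgtgtgt
The probe holds 21 windows that read GTGTGT or TGTGTG. The 162 genes with 5 or more such windows in their probe had a median of 0.83 in MF against CF, with 61.7% over 1.5-fold higher, beside -0.11 and 16.2% for other genes. In MM against CM the 151 such genes had a median of -0.44 with 35.1% lower, beside -0.07 and 23.4%. The directions of Serpinb8 were those of its probe class, and the part of the repeat in them was not tested.

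Windows of C and T (5 bases, at least 3 of them C) also went with the male difference. Genes whose probe held 4 or more had a median of -0.45 in MM against CM with 43.1% lower, against 0.04 and 16.5% for genes without one. The female medians were -0.06 and -0.12, but 5.19% of the genes with 4 or more windows were over 4-fold higher in MF, against 1.21% without one. Serpind1, with 4 windows, was 4.25-fold higher in MF and was also higher in MM. Serpina3c, with 0, was lower in MM, from the class with a median of 0.04. Serpina1a and Serpina1c (5 windows each), Serpina1f (7) and Serpina11 (4) were lower in MM, and so were Serpina1d, Serpina3k and Serpina5 without a window. With the windows removed, 3 of 5 antitrypsins were lower in MM (median -0.63), against 4 of 5 (-0.77) as reported. Serpind1, Serpina3c and Serpinb9c stayed past 1.5-fold the same way in both pairs. The part of the windows as a cause of these differences was not tested. These probe classes were set after the data were seen.

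**Figure D4:**
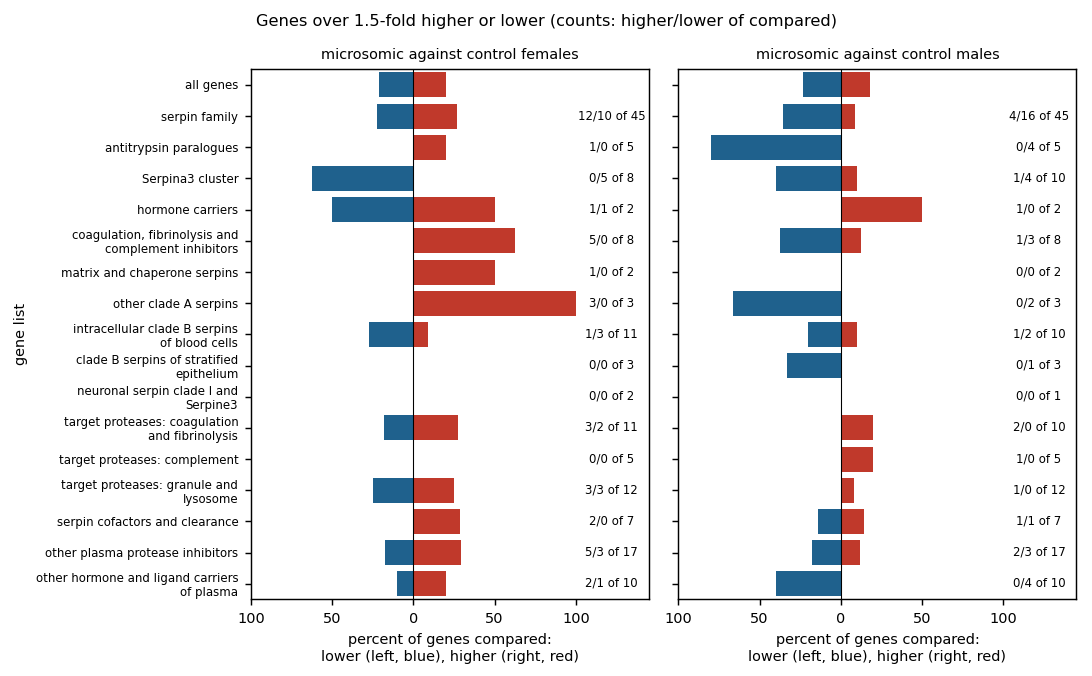
Percent of the genes compared that were over 1.5-fold higher (red, right) or lower (blue, left) in microsomic than in control females (left panel) and males (right panel), for all genes, the serpin family, its role groups and lists of related genes; the numbers are higher/lower of genes compared. The antitrypsins have 4 of 5 lower in males (1 or 2 of 5 under other scalings, and Serpina1a and Serpina1e turn sign under normexp). The Serpina3 cluster has 5 of 8 lower in females (4 of 8 when centred on the median or without scaling, 6 of 8 with quantile normalization). The coagulation, fibrinolysis and complement inhibitors have 5 of 8 higher in females (4 of 8 with quantile normalization or normexp, and Serping1, Serpina10 and Serpinc1 turn sign under normexp).

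Gender itself was compared for the same probes. In CM against CF 25 of 45 members differed by over 1.5-fold (46.3% of all genes), and in MM against MF 27 of 45 (49.5%). Past the line the same way in both were 6 of 43 (15.0% of all genes). Serpinb1c, Serpinb2, Serpinb3c and Serpina3b were higher in males (9.68% of all genes), and Serpinb6c and Serpinh1 were lower (5.28%). For Serpinb6c this rests on the probe, since its other probe was higher in males (1.70 on CM against 1.03 on CF, and 1.27 on MM against 0.87 on MF). The Serpinb3c call is limited by the spread of its spots, given below. Serpinb1c, a copy of the elastase inhibitor, read -0.02 on MF, -0.31 on CF, 1.72 on MM and 1.15 on CM, higher in males by 2.76-fold in controls and 3.33-fold in microsomic mice. Opposite ways went 10 members (8.12% of all genes), Serpina5 and Serpina7 among them. These comparisons use the same 4 arrays as those of weight and are no independent support for them.

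Serpinb3c, an epithelial serpin, was the member printed at 10 spots, 8 of them without a flag. The SD over these spots was 1.53 on MF against 1.77 on CF, and 0.39 on MM against 1.81 on CM, so its differences of 0.34 and -0.42 were within the spread of its own spots. Its gender differences, 1.91 in CM against CF and 1.14 in MM against MF, were of the order of the larger SDs. Serpinb3c was well above background at 4 to 8 of the 8 spots.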

How the data were processed

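The authors quantified the 1-colour scans with Agilent Feature Extraction 10.7.3.1. As deposited, the signal is a linear intensity after subtraction of background and division by a detrending factor, a ratio deposited for each spot. The authors deposited no scaling between arrays, and their table of values equals this signal at all 62976 spots. Depth does not apply to arrays, and 1 array per group limits the precision.

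Here the 75th percentile over non-control spots was subtracted from the log2 signals of an array. The 1754 spots that the software marked as non-uniform or as population outliers anywhere were omitted, spots of a probe averaged, and the probe with the highest mean used for its gene. A gene was compared where at least 1 array of the pair was well above background. Against an array that was not, the difference is a lower bound, set by the dimmest signal called well above background on it or by the probe's own signal if higher. A probe saturated on the brighter array gives a bound, and on the dimmer array no fold. Calls are differences over 1.5-fold, without a test. limma 3.58.1 (R 4.3.3) was fitted over all genes measured on 4 arrays with Benjamini-Hochberg adjustment and tested on simulated data. Sequences came from the array annotation (mm9), and 60 of 61 names matched a RefSeq symbol (GRCm38.p6).

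The members, role groups and gene lists were chosen with earlier results of these data known. Genes given on every array were the brightest 3 of each clade, those past 1.5-fold alike in both genders, the 3 highest and 3 lowest of each comparison and the measured members of 5 role groups, 33 genes, of which 1 is not reported here, although counts and medians include it. Others named were chosen after their values were seen. Alternatives were other scalings, background correction, probe choices, filters, thresholds, limma terms and leaving out an array, and, chosen after seeing the data, removal of the C and T windows and of GC content.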

Additional observations from a re-analysis of the deposited data

Results flagged for a closer look

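In 9 serpin genes the female and the male pair of arrays differed by over 1.5-fold in opposite directions. The difference between the genders was not tested, since each group has 1 array. The log2 difference M minus C was 2.64 in females and -1.89 in males for Serpinb8, and 1.40 and -1.46 for Serpina5. It was at least 1.39 and -1.12 for Serpina9, 1.15 and -0.77 for Serpina1d, 1.05 and -0.87 for Serpina11, and 0.99 and -0.65 for Serping1. For Serpina7 it was -1.17 and 1.28, and for Serpina3f -1.52 and 0.73 (the female value is -1.515 to 3 decimals). The second probes of Serpina11, Serpina1d and Serpina3f had the same signs as the first, and that of Serping1 did not in females. In males the second probes of Serpina11 (1.44-fold) and Serpina1d (1.20-fold) stayed short of 1.5-fold.

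Serpina3h, whose only probe was left out because of an outlier flag on MF, read 2.65 on MF against -1.49 on MM, -1.18 on CF and -1.21 on CM, a log2 difference of 3.83 between MF and CF. The spot that carries the flag is the one that stands apart.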

How the results depend on the processing

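No paired analysis was possible because each group has 1 array and its replicate number is only a name. Without scaling between arrays, where all genes shift up by 0.40 (females) and 0.56 (males), the serpin medians were 0.51 and 0.37, 7 members passed 1.5-fold the same way, limma called 10 genes, and the split of higher among called members became 21 of 29 in females and 19 of 26 in males (12 of 22 and 4 of 20 as reported). Centring on the median shifts all genes by 0.10 and 0.24 and gave 15 of 24 higher in females, quantile normalization 9 of 21, and normexp 9 of 19 in males. Without a filter on dim probes 33 members passed in MM vs CM (median -0.53) and 9 the same way, and at 2-fold 12 passed in MM vs CM. The methods' threshold, an unadjusted p under 0.01 with 1.5-fold, was passed by 163 genes in limma, and leaving out an array gave 0 to 12 genes (12 without CM). The lowest limma adjusted p of a member over all alternatives was 0.129. Signs turned in 47 of 520 values of the 33 genes, 15 of them with normexp, 10 without scaling and 8 with quantile normalization. Of these, 41 were of differences within 1.5-fold as reported, and 6 of differences past it: Serpinf1 in females to -0.0698 (quantile) and -0.42 (normexp), and with normexp Serping1 to -0.15 in females and 0.13 in males, Serpina1a to 0.0463 and Serpina1e to 0.0726 in males. The cause was not tested. Serpind1 was past 1.5-fold the same way in both pairs under every alternative that recomputed this count, and Serpina3c under all of these but the one without scaling.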
